A study of Mus musculus with 6 samples.

Results

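Mitochondrial genome transcripts are the RNAs copied from the small circular chromosome inside mitochondria. All 37 gene symbols that begin with mt- were taken from the deposited table of 55291 genes, and the annotation places 13 protein-coding, 2 rRNA and 22 tRNA genes on this chromosome. They were compared between Calr KO cells (n = 3 libraries) and control cells (n = 3 libraries) of the Lewis lung carcinoma (LLC) line, a mouse lung cancer line. Calr KO cells had received plasmids for Cas9 with a guide RNA against Calr, the gene of calreticulin (a chaperone of the ER lumen that binds calcium), and control cells had received Cas9 with a control guide. Both populations were kept in culture for 10 days, seeded in 3 wells each, left otherwise untreated and collected after 48 hours. The edited cells were a transiently transduced population and no selection of a clone is described, so the p-values measure the spread between wells and not between separate knockouts. Values are counts normalised by the authors with DESeq2, and libraries were prepared with a SMARTer mRNA-seq kit.

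Both strands of the mitochondrial genome are transcribed into long precursors that span many genes, and mRNAs, rRNAs and tRNAs are then cut out of them, in many cases at the tRNAs that lie between the other genes. The mRNAs encode core subunits of respiratory complexes I, III and IV and of the ATP synthase, also called complex V. The rRNAs and tRNAs serve the mitochondrial ribosome that translates them. Members that come from the same precursor are therefore not independent measurements of transcription. Nuclear chromosomes also carry old insertions of mitochondrial DNA, and reads from the mitochondrial genome can be assigned to such copies where the sequences match.

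In these data, 5 mitochondrial mRNAs shared most of their counts with such copies. A comparison of the annotated transcripts found 7 pseudogenes that match an mt- gene at 99% identity or more over at least 200 bases, and all 7 lie in a block of 4663 bases on chromosome 1 (chr1:24611535-24616197, minus strand, GRCm38). The copies of mt-Co2, mt-Atp6, mt-Co3 and mt-Nd4l matched without a difference over 681, 678, 783 and 294 bases, which is about 99% or more of each gene. The copy of mt-Nd3 differed from it at 1 of 345 bases. The copies of mt-Nd4 and mt-Co1 covered 63.6% and 31.3% of those genes. The first 180 bases of the mt-Nd3 pair are shown because mt-Nd3 has the largest log2 change as deposited and because the substitution, T3C, counted from 1 at the 5′ end of the transcript with the mitochondrial base first, is the sole difference within its aligned stretch. Capitals mark a base that differs or that lies beyond the end of the other transcript.
mt-Nd3 (chrM:9459-9638, plus strand): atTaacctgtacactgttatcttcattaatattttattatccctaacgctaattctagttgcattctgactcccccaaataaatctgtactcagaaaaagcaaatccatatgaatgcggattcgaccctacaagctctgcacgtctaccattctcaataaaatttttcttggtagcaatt
Gm28438 (chr1:24612940-24613119, minus strand): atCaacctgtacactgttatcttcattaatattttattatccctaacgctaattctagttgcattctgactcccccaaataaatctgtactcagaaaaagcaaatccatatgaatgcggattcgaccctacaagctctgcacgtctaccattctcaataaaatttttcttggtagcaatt
The ends of mt-Co2 and mt-Nd4l are shown because the stop codon, in capitals, is all that sets the mitochondrial transcripts apart from their copies.
mt-Co2 (chrM:7637-7696, plus strand): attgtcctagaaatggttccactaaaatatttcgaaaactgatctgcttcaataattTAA
Gm28661 (chr1:24614885-24614941, minus strand): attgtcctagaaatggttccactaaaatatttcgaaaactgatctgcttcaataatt
mt-Nd4l (chrM:10114-10173, plus strand): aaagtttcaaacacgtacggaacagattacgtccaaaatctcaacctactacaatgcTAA
Gm10222 (chr1:24612407-24612463, minus strand): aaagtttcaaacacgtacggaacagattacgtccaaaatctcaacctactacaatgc
By contrast, the closest annotated match of mt-Atp8, ranked by identity times aligned length, was Gm28925. It had 31 differences in 167 aligned bases, or 81.4% identity. The last 43 bases of mt-Atp8 are also the first of mt-Atp6, whose copy Gm10925 matched over 678 bases without a difference. That end of mt-Atp8 is therefore not free of a near-identical copy. The sequence of mt-Atp8 is shown, with its differences from Gm28925 in capitals, because this gene had the smallest adjusted p of the mitochondrial genes.
mt-Atp8 (chrM:7766-7969, plus strand): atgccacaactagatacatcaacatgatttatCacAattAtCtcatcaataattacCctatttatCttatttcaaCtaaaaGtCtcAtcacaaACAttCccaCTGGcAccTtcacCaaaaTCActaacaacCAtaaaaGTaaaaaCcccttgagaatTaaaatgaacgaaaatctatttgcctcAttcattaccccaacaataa
The chromosome 1 block has 233 bases with no annotated gene between the copies of mt-Atp6 and mt-Co2, the place that mt-Atp8 takes between those genes on the mitochondrial genome. These bases were not read here, so whether they hold a copy of mt-Atp8, or draw reads from it, is not known. Coordinates and sequences are from GENCODE M21 on GRCm38, the assembly that mm10 names.

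The 5 copies that span nearly a whole gene held most of the counts of their pairs in every library. Gm28661, the copy of mt-Co2, had 73955, 72179 and 77822 normalised counts in Calr KO, against 74814, 71532 and 72566 in control libraries. The mitochondrial gene mt-Co2 itself had 1007, 2755 and 1361 normalised counts in Calr KO, against 1434, 1752 and 1506 in control libraries. Libraries were thus steady on the copy and uneven on the gene, with Calr KO replicate 2 the highest of the 6 and Calr KO replicate 1 the lowest. The share of the pair assigned to mt-Co2 averaged 2.25% ± 1.25 in Calr KO and 2.10% ± 0.262 in control libraries (SD, n = 3 each). For mt-Atp6 with Gm10925 it averaged 5.75% ± 0.904 in Calr KO and 5.84% ± 0.114 in control libraries. For mt-Co3 with Gm28437 the share was 11.8% ± 1.78 in Calr KO and 10.8% ± 2.72 in control libraries. In these 3 pairs the ranges of the groups overlapped.

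The division stood furthest apart between the groups for mt-Nd3. Its share of the pair with Gm28438 was 34.6%, 32.3% and 35.9% in Calr KO libraries, against 15.6%, 23.3% and 30.1% in controls. All Calr KO libraries stood above all controls in this division, and the controls were spread more widely. For mt-Nd4l with Gm10222 the share was 25.0%, 21.5% and 23.8% in Calr KO libraries, against 23.4%, 16.9% and 13.6% in controls, and the groups overlapped. The partial copies held little. Gm28439, which matches part of mt-Nd4, had 104 normalised counts in Calr KO replicate 2, 404 in control replicate 1 and 0 in the other libraries, and Gm29216, which matches part of mt-Co1, was listed at 0 in all 6. More diverged copies on other chromosomes whose symbols are in the table, at 90 to 99% identity over at least 100 bases, held at most 1.03 normalised counts in any library.

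**Figure D1:**
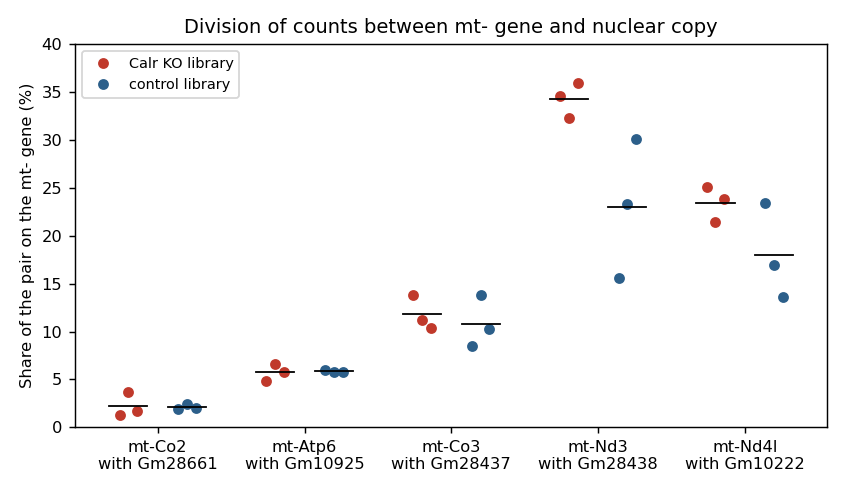
Share of the counts of each pair that was assigned to the mt- gene, in percent, for the 5 genes with a copy over nearly their whole length. Points are libraries and lines are group means; mt-Co2 stays under 4% in every library, and for mt-Nd3 all 3 Calr KO libraries lie above all 3 controls.

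Because the split between sequences this alike is uncertain, each gene is given as deposited and again with its copy added, a step chosen after the values were seen. Adding the copy narrowed the spread between wells for the genes with a copy over nearly their whole length. Where the copy holds most of the counts the sum has to follow it, so this narrowing is no support for adding it. The coefficient of variation of mt-Co2 was 54.1% in Calr KO and 10.7% in control libraries as deposited, and 3.20% in Calr KO and 2.06% in control libraries with the copy. That of mt-Nd3 was 11.7% in Calr KO and 31.4% in control libraries as deposited, and 6.60% in Calr KO and 4.36% in control libraries with the copy. The protein-coding genes for which no near-identical copy is annotated varied by 2.29% to 6.98% in Calr KO and by 1.40% to 3.87% in control libraries. A true transcript of the pseudogenes cannot be told apart from mitochondrial RNA in this sum.

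Counted per length, the mitochondrial mRNAs covered a wide range that was ordered alike in both groups. Levels here are normalised counts per kilobase of annotated gene with copies added, without a correction for fragment length, which weighs most on the shortest genes. The highest was mt-Co1, the catalytic subunit of complex IV, at 144467 ± 1166 in Calr KO and 140437 ± 1912 in controls (SD, n = 3 each). Next was mt-Co2, which receives electrons from cytochrome c, at 111637 ± 3575 in Calr KO and 108969 ± 2244 in controls. As deposited, without the copy, mt-Co2 stood at 2497 ± 1351 in Calr KO and 2287 ± 244 in controls. The lowest mRNA was mt-Atp8, at 6729.9 ± 154 in Calr KO and 5592 ± 133 in controls.

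Between these ends the order was mt-Atp6, mt-Co3, mt-Cytb, mt-Nd1, mt-Nd2, mt-Nd4, mt-Nd5, mt-Nd3, mt-Nd4l and mt-Nd6 in both groups. Neighbours in this order did not overlap between libraries of 1 group except mt-Nd3 with mt-Nd4l, which overlapped in both groups, and mt-Nd2 with mt-Nd4, which overlapped in Calr KO libraries. The rRNAs came last, with mt-Rnr1 at 3688 ± 241 in Calr KO and 3405 ± 422 in controls and mt-Rnr2 at 2999 ± 135 in Calr KO and 2784 ± 165 in controls. The kit is named for mRNA, and how much rRNA it retains was not measured here, so the rRNA values are no measure of ribosome content. All 22 tRNA genes were listed at 0 in each of the 6 libraries and could not be compared. The remaining 15 members, all 13 mRNAs and both rRNAs, passed the filter of a mean of at least 10 normalised counts.

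**Figure D2:**
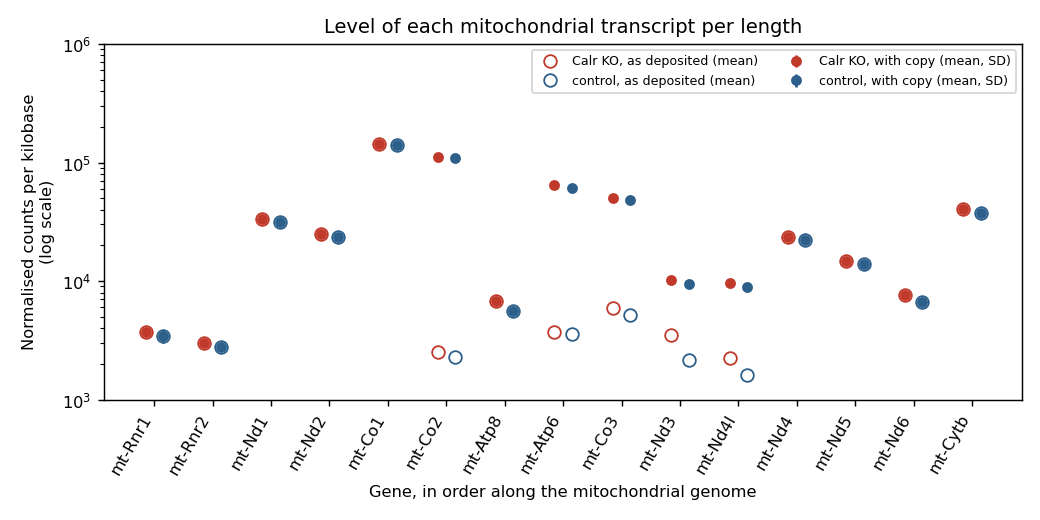
Normalised counts per kilobase on a log axis for the 15 members above 0, in their order along the mitochondrial genome, with Calr KO left of control. Filled points with SD bars include the near-identical copy and open points are as deposited; the open points of mt-Co2, mt-Atp6, mt-Co3, mt-Nd3 and mt-Nd4l fall well below the filled ones.

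No mitochondrial transcript passed the test between Calr KO and control cells. Genes were tested with limma on log2(normalised count + 1) over all 13199 genes with a mean of at least 10, two-sided, with Benjamini-Hochberg adjustment and a threshold of 0.05. Of the 15 tested members 0 were called, while 0.28% of all tested genes were. Without adjustment, 8 of the 15 had a p under 0.05 as deposited, beside 8.88% of all tested genes, and 9 of the 15 with copies, beside 8.91%. Calr itself, the target of the guide, had 4467, 4216 and 4453 normalised counts in Calr KO, against 10711, 10202 and 11047 in control libraries, a change of -1.28 in log2 units (SE 0.04, adjusted p = 7.9e-07 by limma), so transcript remained in every Calr KO library.

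Although none was called, nearly all members lay on the same side. The log2 change was above 0 for 14 of 15 members as deposited and for 15 of 15 with copies, while 50.1% of all tested genes were above 0. The median over the 15 was 0.11 as deposited and 0.08 with copies, beside 0.0004 over all tested genes. In 7 of the 15 as deposited, and in 8 with copies, all Calr KO libraries stood above all controls, as in 7.57% of all tested genes. In no member did all Calr KO libraries stand below all controls, as in 7.28% of all tested genes. Members that share a precursor do not count as separate evidence here. Calr KO replicate 3 was the highest of the Calr KO libraries in 10 of the 13 mRNAs with copies.

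**Figure D3:**
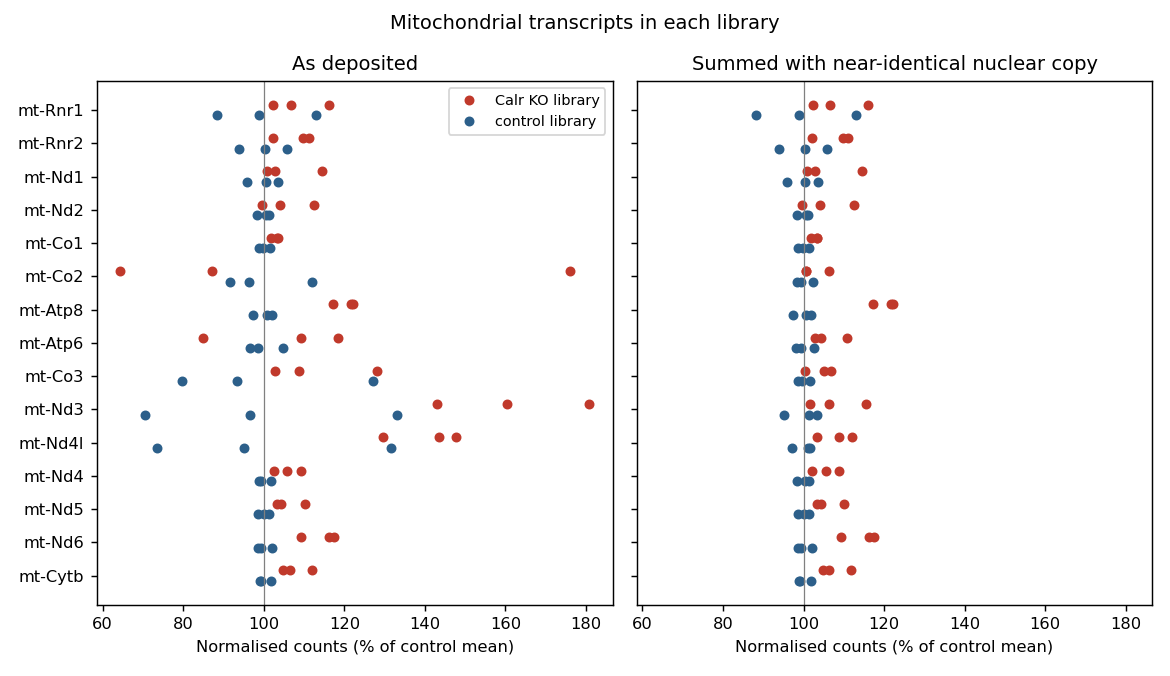
Normalised counts of each member in each library, as a percentage of the control mean of that member, as deposited (left) and summed with the near-identical copy (right). Each point is a library, with Calr KO above control in each row; the wide scatter of mt-Co2, mt-Nd3 and mt-Nd4l on the left is much narrower on the right.

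The mitochondrial mRNAs and rRNAs together took a slightly larger share of the library in Calr KO cells. As deposited, all mt- genes together held 2.89%, 2.90% and 2.97% of the counts in Calr KO libraries, against 2.80%, 2.78% and 2.78% in controls. With the copies added, the share was 3.96%, 3.99% and 4.12% in Calr KO libraries, against 3.91%, 3.83% and 3.84% in controls. The groups did not overlap in either sum, and the 95% Wilson interval of each share, on estimated reads, was no wider than 0.0106 percentage points to either side, for counting error alone. The copies by themselves overlapped between groups, at 1.07%, 1.08% and 1.15% in Calr KO libraries and 1.10%, 1.05% and 1.06% in controls. The ratio of Calr KO to control for the summed mRNAs was 1.05 as deposited and 1.04 with copies. These sums are descriptions and carry no test, and in RNA from whole cultures more mitochondrial RNA per cell and a different mix of cells cannot be told apart.

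Complex I, the NADH dehydrogenase, draws 7 core subunits from the mitochondrial genome. Their summed level with copies was 1.06 times control in Calr KO, with no overlap between groups. Among them mt-Nd6, which alone of the mRNAs is read from the opposite strand, had 3785, 4027 and 4068 normalised counts in Calr KO, against 3417, 3438 and 3536 in control libraries. All Calr KO libraries stood above all controls, and the change of 0.19 in log2 units (SE 0.04, adjusted p = 0.157 by limma) did not pass. Its 95% interval ran from 0.10 to 0.28. The use of strand in counting is not stated in any source here, so reads from the opposite strand of this stretch, 14 bases of which belong to mt-Nd5, cannot be told apart from it.

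The 4 other complex I mRNAs without a copy over their whole length lay closer to the control level than mt-Nd6. The value of mt-Nd5, whose product lies in the proton-pumping membrane arm, was 28090.2, 26368 and 26617 normalised counts in Calr KO, against 25138, 25516 and 25853 in control libraries. That of mt-Nd4, another membrane arm subunit, was 31344, 32293 and 33404 normalised counts in Calr KO, against 30378, 31144 and 30176 in control libraries. Both sets of Calr KO libraries stood above all controls, with changes of 0.08 and 0.08 on the log2 scale and limma adjusted p-values of 0.404 and 0.394. For mt-Nd1 the libraries held 30942, 30352 and 34475 normalised counts in Calr KO, against 30257, 28887 and 31204 in control libraries. For mt-Nd2 they held 25327, 24255 and 27398 normalised counts in Calr KO, against 24487, 23941 and 24646 in control libraries. In both of these the groups overlapped and Calr KO replicate 3 was the highest of the 6, with changes of 0.08 and 0.07 and limma adjusted p-values of 0.665 and 0.642.

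The mRNAs of mt-Nd3 and mt-Nd4l, small membrane subunits, had the largest log2 changes of all members as deposited, and both became much smaller with the copy. As deposited, mt-Nd3 had 1206, 1076 and 1359 normalised counts in Calr KO, against 529.9, 726 and 999.7 in control libraries. This gave a change of 0.73 in log2 units (SE 0.19, adjusted p = 0.29 by limma). Its copy Gm28438 had 2279, 2252 and 2427 normalised counts in Calr KO, against 2859, 2390.3 and 2325 in control libraries, a change of -0.12, so the gene and its copy lay on opposite sides. The sum of both was 3485, 3328 and 3787 normalised counts in Calr KO, against 3389, 3116 and 3325 in control libraries. The groups overlapped in this sum, and the change was 0.11 in log2 units (SE 0.05, adjusted p = 0.619 by limma), with a 95% interval of -0.01 to 0.23. For mt-Nd4l, which lies just upstream of mt-Nd4 and overlaps it by 7 bases, the libraries held 681, 615 and 701 normalised counts in Calr KO, against 625, 451 and 348 in control libraries. The change of 0.53 in log2 units (SE 0.18, adjusted p = 0.439 by limma) became 0.11 in log2 units (SE 0.04, adjusted p = 0.507 by limma) with Gm10222 added.

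Complex III, the cytochrome bc1 complex, has mt-Cytb as its sole mitochondrially encoded subunit. Its mRNA had 45977, 45259.5 and 48350.1 normalised counts in Calr KO, against 44011, 42764 and 42864 in control libraries. All Calr KO libraries stood above all controls, by a change of 0.11 in log2 units (SE 0.03, adjusted p = 0.233 by limma) that did not pass. The 95% interval was 0.05 to 0.16. Leaving out each library in turn gave changes of 0.08 to 0.13.

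Complex IV, cytochrome c oxidase, had the most abundant mRNA of the members, mt-Co1, and with copies its mRNAs had the smallest changes of the 15. Their summed level with copies was 1.03 times control in Calr KO. It ran from 333994 to 343656 normalised counts in Calr KO and from 325546 to 334730 in control libraries, so the groups overlapped. As deposited, without copies, the groups did not overlap in this sum. The value of mt-Co1, the largest of any gene in the table, was 221127, 224371 and 224105 normalised counts in Calr KO, against 220089.8, 216621 and 214213 in control libraries. The groups did not overlap, and the change was 0.04 in log2 units (SE 0.01, adjusted p = 0.395 by limma), or 1.03 times control. With its copy mt-Co2 had 74961, 74935 and 79183 normalised counts in Calr KO, against 76248, 73284 and 74072 in control libraries, with overlap and a change of 0.03 in log2 units (SE 0.02, adjusted p = 0.744 by limma). Its change as deposited was -0.0012, whose sign changed with single libraries left out: it was 0.31 without the first Calr KO replicate, 0.10 without the third, and 0.08 without control replicate 2. The core subunit mt-Co3 had 5234, 4447 and 4195 normalised counts in Calr KO, against 3255, 5192 and 3810.2 in control libraries as deposited. With its copy it had 37906, 39668 and 40367 normalised counts in Calr KO, against 38393, 37592 and 37261 in control libraries, again with overlap and a change of 0.06 in log2 units (SE 0.03, adjusted p = 0.547 by limma).

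The ATP synthase mRNAs mt-Atp8 and mt-Atp6 overlap by 43 bases and are translated from a shared transcript. The short mt-Atp8, which encodes a small membrane subunit, had 1394, 1337 and 1388 normalised counts in Calr KO, against 1110.5, 1163 and 1149 in control libraries. The groups were well apart and the wells close together, and the change was 0.27 in log2 units (SE 0.05, adjusted p = 0.104 by limma), the smallest adjusted p of the members, with a 95% interval of 0.15 to 0.38. Over 15 alternatives of the processing its adjusted p ran from 0.0978 to 0.378. As deposited, mt-Atp6, the proton channel subunit, had 2053, 2862 and 2639.6 normalised counts in Calr KO, against 2532, 2379 and 2333 in control libraries, with overlap and a change of 0.05 in log2 units (SE 0.10, adjusted p = 0.932 by limma). With its copy it had 42489, 43109.7 and 45766 normalised counts in Calr KO, against 42403, 41045 and 40528 in control libraries. With the copy the groups did not overlap, and the change was 0.08 in log2 units (SE 0.03, adjusted p = 0.464 by limma). This was smaller than the change of mt-Atp8 on the same transcript, to which no copy was added. The difference between both was not tested. Per kilobase, mt-Atp6 with its copy stood at 64300 in Calr KO and 60683 in controls. The level of mt-Atp8 was 6730 in Calr KO and 5592 in controls, so the 2 genes were counted very unequally.

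The rRNAs of the mitochondrial ribosome overlapped between the groups. The small-subunit rRNA mt-Rnr1 had 3775, 3324 and 3468 normalised counts in Calr KO, against 3212, 2869.6 and 3672 in control libraries, a change of 0.12 in log2 units (SE 0.08, adjusted p = 0.741 by limma). The large-subunit rRNA mt-Rnr2 had 4894, 4500.0 and 4837 normalised counts in Calr KO, against 4423, 4135 and 4655 in control libraries, a change of 0.11 in log2 units (SE 0.05, adjusted p = 0.588 by limma). For mt-Rnr1 the highest control library exceeded all but 1 of the Calr KO libraries. Their 95% intervals were -0.07 to 0.31 and -0.0064 to 0.22, so both reach below and above no change. The median change over all 15 members, these rRNAs among them, also lies within both.

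**Figure D4:**
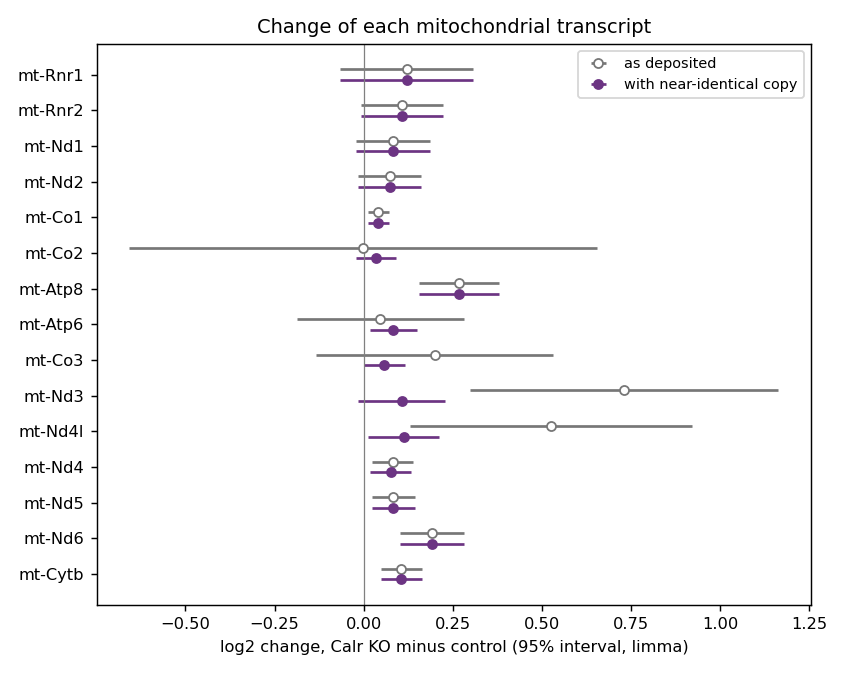
log2 change of each member, Calr KO minus control, with its 95% interval from limma, as deposited (open) and with the near-identical copy (filled). The intervals of mt-Co2, mt-Nd3 and mt-Nd4l shrink with the copy, and mt-Atp8 and mt-Nd6 then have the largest changes, 0.27 and 0.19.

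The nuclear genes that copy, process and translate mitochondrial RNA showed no called member either. The lists had 0 called of 14 genes of mtDNA maintenance, 11 of transcription, 24 of RNA processing and tRNA modification, 14 of RNA polyadenylation, stability and decay, 15 translation factors and activators, 22 aminoacyl-tRNA synthetases and related enzymes, 7 tested regulators of mitochondrial biogenesis and 78 mitochondrial ribosomal proteins. Without adjustment, the number with a p under 0.05 was 0, 0, 3, 2, 1, 3, 0 and 3, in that order, beside 8.88% of all tested genes, as 0.28% of all tested genes were called. Their median log2 changes were -0.05, 0.03, 0.05, 0.04, 0.03, 0.02, -0.04 and 0.02, beside 0.0004 over all tested genes.

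Among core factors of mitochondrial transcription and mRNA stability, Tfam, Polrmt and Lrpprc are named here for their roles, after their values were seen. Tfam, which packages mitochondrial DNA and starts its transcription, had 797, 851 and 798 normalised counts in Calr KO, against 818, 767 and 815 in control libraries, a change of 0.03 with a 95% interval of -0.11 to 0.17. Polrmt, the mitochondrial RNA polymerase, had 589.7, 542 and 748 normalised counts in Calr KO, against 704, 494 and 647 in control libraries, a change of 0.03 with a 95% interval of -0.31 to 0.36. Lrpprc, which stabilises mitochondrial mRNAs, had 1742, 1637 and 1604 normalised counts in Calr KO, against 1658, 1618 and 1596 in control libraries, a change of 0.03 with a 95% interval of -0.08 to 0.14. All 3 overlapped between the groups.

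The nuclear genes with the smallest p of their lists also missed the threshold. Gatb, a subunit of the enzyme that makes glutaminyl-tRNA in mitochondria, had 254, 156 and 237 normalised counts in Calr KO, against 113, 146 and 117 in control libraries, a change of 0.76 in log2 units (SE 0.19, adjusted p = 0.27 by limma). Mtif3, a mitochondrial translation initiation factor, had 241, 253 and 209.7 normalised counts in Calr KO, against 166, 142 and 196 in control libraries, a change of 0.49 in log2 units (SE 0.14, adjusted p = 0.338 by limma). In both, all Calr KO libraries stood above all controls. Among ribosomal proteins, Mrps35 had a log2 change of 0.36 and Mrpl17 one of 0.25, with limma adjusted p-values of 0.327 and 0.364. The RNA-binding Tbrg4 and Fastkd3 had changes of 0.17 and 0.25, the pseudouridine synthases Trub2 and Pus1 0.37 and 0.18, and Kars, a synthetase that serves cytosol and mitochondria, -0.10. Mterf2 and Tfb1m of the transcription list had -0.26 and 0.29, Rrm2b and Top1mt of the maintenance list -0.25 and 0.18, and the regulators Pprc1 and Tfeb -0.06 and -0.22. The translation initiation factor Mtif2 had a log2 change of 0.21. The biogenesis coactivator Ppargc1a, named for its role after its values were seen, was under the filter, at 4.51 to 11.9 normalised counts in Calr KO and 4.38 to 11.4 in control libraries.

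**Figure D5:**
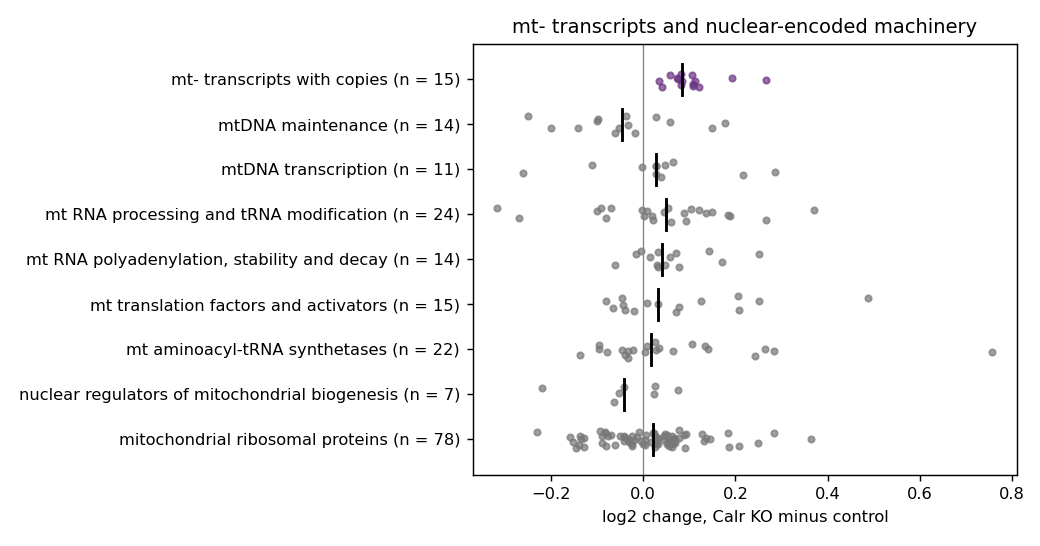
log2 change, Calr KO minus control, of each tested gene in the mt- set with copies and in 8 lists of nuclear-encoded machinery, with the list median as a black line. All 15 mitochondrial transcripts lie right of 0, while each nuclear list has genes on both sides.

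The 6 libraries summed to between 14040692 and 14099985 normalised counts, and log2 values correlated at 0.985 to 0.986 within and 0.984 to 0.986 between groups across genes. LLC identity was checked on epithelial and mesenchymal markers. Krt8, Krt18, Vim, S100a4 and Fn1 were present, Epcam and Krt19 were listed at 0 in all libraries, and of 6 lung lineage markers 4, Sftpc and Nkx2-1 among them, were listed at 0 throughout. The 5 epithelial markers summed to 4961 to 5240 in Calr KO and 4632 to 4932 in control libraries, and the 4 mesenchymal markers to 44031 to 46117 in Calr KO and 48162 to 50398 in control libraries. Krt8 made up most of the epithelial sum, at 4634.0 to 4906.7 in Calr KO and 4375.4 to 4637.1 in control libraries. Krt8 and Krt18 each overlapped between the groups by themselves. Cdh1 had 0 to 3.08 normalised counts in Calr KO and 1.03 to 4.98 in control libraries. Cdh2 had at most 0.964 in any library. Of the mesenchymal markers, S100a4 had 4042, 3984 and 4344 normalised counts in Calr KO, against 4911, 4645 and 4905 in control libraries, a change of -0.23 in log2 units (SE 0.04, adjusted p = 0.116 by limma), and Vim had a change of -0.11 in log2 units (SE 0.03, adjusted p = 0.278 by limma). In both, all Calr KO libraries stood below all controls, and neither passed the test. The epithelial and mesenchymal sums moved with the groups, as the mitochondrial share did, and their part in it was not tested. Markers of other cells were low for macrophages, at 65.1 to 114 in Calr KO and 75.5 to 97.1 in control libraries, and for endothelium, at no more than 66.5 in Calr KO and 70.6 in control libraries. The lymphocyte markers summed to 7.16 to 9.74 in Calr KO and 0 to 5.98 in control libraries, with 4 of 6 at 0 throughout, Cd3e among them; these sums were also apart, and their part was not tested. The fibroblast markers, which mesenchymal tumour cells can express, summed to 2163 to 2521 in Calr KO and 2033 to 2502 in control libraries.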

How the data were processed

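RNA was sequenced from 3 Calr KO and 3 control wells. Values in the deposited table are signal, that is gene counts the authors scaled with DESeq2, according to the labels. STAR 2.6.1d, Salmon 0.14.1, DESeq2 1.34.0 and mm10 appear in the submitters' processing notes, without role or order, with the annotation release not given in the sources used here. To see whether reads could be recovered, the most frequent value between 0.5 and 1.5 was taken as 1 read. It was 0.945 to 1.04 normalised counts, or 13571210 to 14918661 estimated reads per library. Of values of 100 to 1000 reads, 3.44% to 4.31% came out whole within 0.02, so whole reads were not recovered and no count model was run.

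The test used limma 3.58.1 (R 4.3.3) on log2(value + 1), with a variance prior that follows the mean, over genes with a mean of at least 10, adjusted over all 13199. It was tried on simulated data with planted changes larger than those of the mt- genes with copies. That trial does not show how well changes as small as these are found. This scale understates the fold change of low genes. Near-identical copies were found with BLAST+ 2.17.0 among GENCODE M21 transcripts. The members and lists were chosen with earlier results of these data known. Named genes are all mt- genes, Calr and, per list, the called genes or else the 2 of smallest p. Tfam, Polrmt, Lrpprc and Ppargc1a were named outside this rule, after their values were seen. So were, in the marker lists, Fn1, Cdh1, Cdh2 and the genes listed at 0. The lists of other cell types are given by their sums. The groups share replicate numbers, but the deviations of same-numbered libraries correlated at -0.0555 to 0.0014 across genes, so they were not taken as pairs. Alternatives were other pseudocounts, filters, scalings and variance priors, a replicate block and leaving out each library. Counting intervals cover counting error only.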

Additional observations from a re-analysis of the deposited data

How the results depend on the processing

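As deposited, no mitochondrial gene was called under any alternative run, the single variance prior, the replicate block and each left-out library included. With copies, no mitochondrial gene was called in the full fit or with any library left out. The other alternatives were not run with copies. Over all genes, the count of 37 became 26 with the replicate block and 2 with a single variance prior. Leaving out each library gave 20 to 30, both as deposited and with copies: 20 without Calr KO replicate 1 and also without control replicate 3, 21 for Calr KO replicate 3, and 22 for control replicate 2. The replicate block changed no call of a mitochondrial gene. The ratio of Calr KO to control was 1.04 to 1.05 for the summed mRNAs and 1.04 to 1.13 for the rRNAs over all alternatives. Over left-out libraries the change of mt-Co2 ran from -0.41 to 0.31, and with its copy, where the full fit gave 0.035, from 0.0082 to 0.051. That of mt-Atp6 as deposited ran from -0.052 (Calr KO replicate 2 left out) to 0.19. All other mitochondrial changes kept their sign in every alternative. The causes were not tested. The tRNA sum gave no ratio, because every value is 0. Depth was lowest for mt-Nd4l, at 348 to 701 normalised counts per library as deposited, and where gene and copy have the same bases greater depth would not separate them.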
